A study of Mus musculus with 49 samples.

Results

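The STAT (signal transducer and activator of transcription) genes *Stat2*, *Stat3*, *Stat4*, *Stat5a*, *Stat5b*, and *Stat6* were followed at the RNA level in mouse CD8+ T cells, which kill infected and tumour cells. They were chosen by name, with the longest deposited transcript taken for each, and are 6 of the 23992 gene symbols in the files. The cells were purified from the spleens of adult mice of both sexes by negative selection, and were taken without IL-2 (0 hr) or after 4, 24, or 48 hr of culture in recombinant human IL-2 at 500 IU/ml. The *Stat5a* line held WT cells and *Stat5a* KI cells homozygous for Y694F in STAT5A, and the *Stat5b* line had WT cells and *Stat5b* KI cells homozygous for Y699F in STAT5B. In both proteins a phenylalanine replaces the tyrosine that is phosphorylated upon cytokine stimulation, in all cells of the animal. The founders were made in B6D2F1 zygotes and crossed to C57BL/6J, and each line had its own WT littermates. Each of the 16 groups had 3 RNA-seq libraries, and 47 libraries were used: the third library of *Stat5a* KI cells at 4 hr was left out. The labels do not say that the replicates of a group were separate animals, so p-values measure the spread between these samples, which may be technical.

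STAT proteins are latent transcription factors that lie downstream of cytokine receptors. A bound receptor brings together Janus kinases (JAKs), which phosphorylate a tyrosine near the end of the STAT protein, and the phosphorylated STATs pair through their SH2 domains and bind DNA in the nucleus. STAT5A and STAT5B are near-identical and carry the signals of IL-7, IL-15, and IL-2, STAT3 that of IL-6, IL-10, and IL-21, STAT4 that of IL-12, STAT6 that of IL-4, and STAT2 works with IRF9 downstream of type I interferon. In CD8+ T cells, IL-2 acts through STAT5 to drive division and the effector program.

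The edited codons are shown first because they separate the 2 KI alleles. The tyrosine codon of *Stat5a* is in exon 18 of 20 at chr11:100881755-100881757 on the plus strand of GRCm38, and that of *Stat5b* in exon 17 of 19 at chr11:100784285-100784287 on the minus strand. The windows below hold 63 bases each, from the last bases of the upstream intron into the exon, 5′ to 3′ on the strand of the gene, from chr11:100881725-100881787 and chr11:100784255-100784317, with the tyrosine codon in capitals.
Stat5a genome: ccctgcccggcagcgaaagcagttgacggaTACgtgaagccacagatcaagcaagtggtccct
Stat5b genome: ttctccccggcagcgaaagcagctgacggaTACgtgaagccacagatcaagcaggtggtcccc
The same stretches of the donor oligos that were designed for the edit are given next, with each base that differs from the genome in capitals.
Stat5a donor: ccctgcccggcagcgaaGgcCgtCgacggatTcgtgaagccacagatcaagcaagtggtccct
Stat5b donor: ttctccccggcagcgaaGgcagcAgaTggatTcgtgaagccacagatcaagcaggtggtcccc
Counted from 1 at the 5′ end of the window, with the genome's base first, the *Stat5a* donor carries A18G, A21C, T24C, and A32T, and the *Stat5b* donor carries A18G, T24A, C27T, and A32T. A32T turns the TAC codon into TTC and gives Y694F or Y699F, and the other 3 changes in each donor leave the amino acid as it was. The guides are printed with the PAM in capitals.
Stat5a guide: ccggcagcgaaagcagttgaCGG
Stat5b guide: ccggcagcgaaagcagctgaCGG
They match chr11:100881731-100881750 and chr11:100784292-100784311 without the PAM, and differ at 1 base of 20, T17C, counted from the 5′ end of the guide with the *Stat5a* base first.

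*Stat5b*, *Stat5a*, and *Stat3* lie side by side on chromosome 11 of GRCm38, at 100780731 to 100859004 on the minus strand, 100859351 to 100885169 on the plus strand, and 100886806 to 100939594 on the minus strand. Only 346 bases separate *Stat5b* from *Stat5a*, and 1636 bases separate *Stat5a* from *Stat3*. *Stat6* (127642955 to 127660987) and *Stat2* (128270498 to 128292853) lie on the plus strand of chromosome 10, 609.51 kb apart, and *Stat4* (51987106 to 52107189, plus strand) is on chromosome 1. *Stat5a* and *Stat5b* share 608 stretches of 50 bases, the read length, which is 15.837% of the stretches in *Stat5a* and 11.679% of those in *Stat5b*. No other pair of the 6 transcripts shares a single stretch of 50 bases. Since the authors kept uniquely mapped reads, reads from the shared stretches of *Stat5a* and *Stat5b* cannot be assigned, and the counts of both genes rest on the remainder. The 3 genes on chromosome 11 do not overlap in the annotation, but the use of strand in counting is not stated, so reads that run from one gene into its opposite-strand neighbour cannot be told apart from the neighbour's own. A base changed in the donor is covered by 64 of the 50-base positions, 1.667% of those in *Stat5a* and 1.229% of those in *Stat5b*. The motif TTCNNNGAA, the core of the GAS element to which STAT dimers bind, was searched in the 9 RefSeq promoter windows of the 6 genes (GRCm38, 250 bases before to 50 bases after a transcript start). The motif reads the same on both strands. None of the 9 windows holds it, and it occurs in 8.298% of the 32851 windows of all genes.

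The 47 libraries held 17369112 to 60200653 reads on the longest transcripts (median 41410666). The library left out held 1028515 reads, and 5.68% of its mapped reads fell on the transcripts. Replicate 2 of the WT cells at 4 hr of the *Stat5a* line also stood apart, with 17369112 reads, 44.9% of the mapped reads on transcripts, and the lowest RPKM (reads per kilobase of transcript, scaled to how many reads a library had mapped) of all 47 libraries for *Stat3*, *Stat5a*, *Stat5b*, and *Stat6*. Results at 4 hr in the *Stat5a* line that it changes are therefore also given without it. The smallest count of a member in any library was 1499 reads, for *Stat5a*. The summed RPKM of 8 genes of CD8 T cells, led in most groups by *Cd8b1*, was 747 to 2256 in the 47 libraries. Markers of other cells were also present. The summed RPKM of 7 B-cell genes was 117.99 ± 55.3 in WT and 266 ± 27.5 in KI cells of the *Stat5a* line at 0 hr (SD, n = 3 each). The *Stat5b* line had 56.6 ± 3.94 and 219.5 ± 3.45, with *Cd79a* as the most abundant gene in both and none of the 7 genes at 0 in all libraries of a group.

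The members were expressed at levels that differed by gene and by time in WT cells. In WT cells of the *Stat5b* line at 0 hr, *Stat6* was the most abundant per length at 45.7 ± 2.29 RPKM (SD, n = 3), followed by *Stat3* at 38.2 ± 1.59 and *Stat4* at 34.6 ± 0.664. *Stat5b* was at 29.2 ± 0.755, *Stat5a* at 21.5 ± 0.344, and *Stat2*, the interferon-pathway member, was lowest at 9.20 ± 1.40. The order was the same in the *Stat5a* line, but the ranges of *Stat3* (29.1 to 37.6) and *Stat4* (30.0 to 32.8) overlapped. At 4 hr *Stat4* ranked first in both lines, at 98.1 ± 2.40 RPKM in the *Stat5b* line and 69.8 ± 25.3 in the *Stat5a* line, where its replicates gave 73.5, 42.8, and 92.9. *Stat2* moved from last place at 0 hr to rank 4 at 24 hr, with 31.1 ± 3.62 RPKM in the *Stat5a* line, where its range (27.1 to 34.1) began just above that of *Stat5b* (23.6 to 27.1). It was at 26.0 ± 2.33 RPKM in the *Stat5b* line, where the ranges overlapped. Over the 16 group means the highest was 3.60 times the lowest for *Stat4* and 3.49 times for *Stat2*, against 1.70 times for *Stat5a*.

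**Figure D1:**
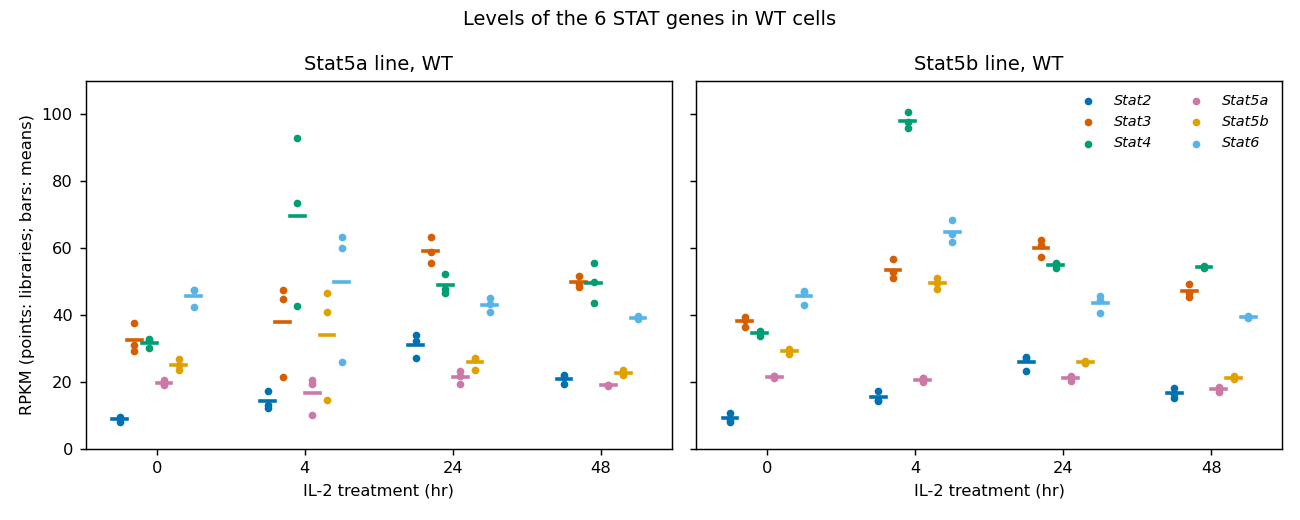
RPKM of the 6 STAT genes (y axis) in each WT library (points) by hours of IL-2 (x axis), with the mean of each group as a bar, in the Stat5a line (left) and the Stat5b line (right). Stat6 stands highest at 0 hr and Stat4 at 4 hr in both lines, and 1 library of the Stat5a line at 4 hr lies below the other 2 for all 6 genes.

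Changes of 1 gene between groups are given on another scale, the CPM (counts scaled to the library total) after TMM scaling, on which the test was run. The deposited RPKM ran higher on this scale after IL-2: relative to 0 hr of the same line and genotype, the ratio of RPKM to CPM was 1.11 to 1.18 times as large in every group but WT cells at 4 hr of the *Stat5a* line, where it was 0.963 times. An RPKM that appears level can therefore be a lower CPM. Calls rest on edgeR's quasi-likelihood test, with p adjusted by Benjamini-Hochberg over the 15566 genes tested, a threshold of 0.05, and no limit on the fold. All 6 members passed the filter on low counts, and log2 fold changes are given ± SE.

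The STAT transcripts changed over the times of IL-2 in WT cells of both lines, and each gene had its own course. No library held cells cultured without IL-2, so IL-2 and time in culture cannot be told apart. Of the 6 members, 4, 4, and 6 passed the test at 4, 24, and 48 hr in the *Stat5a* line, where 58.4%, 59.0%, and 71.7% of all genes tested passed. In the *Stat5b* line 6, 6, and 5 members passed, beside 49.5%, 59.6%, and 69.9% of all genes. With 49.5% to 71.7% of all genes called, these counts say little about the family, and the courses of the single genes are given below. Markers of other cells fell over the same times. At 48 hr in WT cells all 7 B-cell genes were lower than at 0 hr (medians of −2.69 and −3.01 in the *Stat5a* and *Stat5b* lines), as were the 6 myeloid genes tested (−4.15 and −4.36), the 4 erythroid genes (−4.95 and −3.72), and the 4 genes of CD4 T cells (−2.61 and −2.92), and the 4 NK-cell genes were higher (1.99 and 1.43). *Eomes* was the most abundant of the NK-cell genes, at 63.7 and 63.2 RPKM in WT cells at 48 hr. The paper reports that IL-2 induced EOMES protein in CD8+ T cells, so this list is not specific to NK cells here. The part of all these markers in the courses of the STAT genes was not tested. The 4 calls at 4 hr in the *Stat5a* line became 5 without replicate 2 of its WT cells: *Stat3* (0.32, adjusted p = 0.00105) and *Stat6* (0.25, adjusted p = 0.000236) passed in edgeR's test, and *Stat5a* did not (−0.15, adjusted p = 0.0679).

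*Stat5b* and *Stat6* rose early and then fell below the level at 0 hr in the *Stat5b* line, and not every step passed in the *Stat5a* line. In WT cells of the *Stat5b* line, *Stat5b* had CPM of 222.6, 226.7, and 225.2 at 0 hr and 340.8, 351.0, and 322.3 at 4 hr, and the groups did not overlap. The log2 fold change was 0.59 ± 0.11 (adjusted p = 4.0e-05, edgeR). *Stat5b* then dropped to 176.9, 177.4, and 171.2 CPM at 24 hr and to 144.8, 144.6, and 146.4 at 48 hr, so that all 6 late libraries lay below the lowest value at 0 hr. Its log2 fold change against 0 hr was −0.36 ± 0.11 at 24 hr and −0.63 ± 0.11 at 48 hr. For the *Stat5a* line *Stat5b* had 288.4, 165.0, and 328.9 CPM at 4 hr, the second value from the library that stood apart, with a log2 fold change of 0.38 ± 0.11 over all 3 libraries and 0.62 without that one. At 24 hr it was at −0.13 ± 0.11 there and did not pass, and at 48 hr it fell by 0.36 ± 0.11 on the log2 scale (adjusted p = 0.00497, edgeR), a call that was lost without replicate 3 at 0 hr or replicate 2 or 3 at 48 hr, with adjusted p of up to 0.0717 in edgeR's test. *Stat6*, the mediator of IL-4 signals, followed the same order in the *Stat5b* line, with log2 fold changes of 0.33, −0.25, and −0.39 (SE 0.08 each) at 4, 24, and 48 hr. Its call at 24 hr was lost without replicate 1 or 2 at 0 hr or replicate 3 at 24 hr, with values of −0.18 to −0.15 and adjusted p of up to 0.158 in edgeR's test. In the *Stat5a* line it was at 0.09 ± 0.08 at 4 hr, which did not pass, and fell by 0.26 at 24 hr and by 0.43 at 48 hr on the log2 scale. Of 8 other settings of the fit, the *Stat5b* calls at 4, 24, and 48 hr held in 8, 6, and 8 in the *Stat5b* line. In the *Stat5a* line they held in 5 and 5 at 4 and 48 hr. Those of *Stat6* held in 7, 5, and 6 in the *Stat5b* line, and in 6 and 6 at 24 and 48 hr in the *Stat5a* line.

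*Stat5a*, the neighbour of *Stat5b*, had a flatter course without the early rise. Its CPM in WT cells of the *Stat5b* line was 122.8, 122.7, and 122.3 at 0 hr, 106.8, 107.6, and 99.7 at 4 hr, and 91.3, 86.8, and 92.2 at 48 hr. All values with IL-2 at these times lay below those at 0 hr, and the log2 fold change was −0.23 ± 0.08 at 4 hr, −0.21 ± 0.08 at 24 hr, and −0.44 ± 0.08 at 48 hr (adjusted p = 2.9e-06 at 48 hr, edgeR). The values of the *Stat5a* line were −0.25 ± 0.08 at 4 hr, −0.04 ± 0.08 at 24 hr, and −0.26 ± 0.08 at 48 hr, of which the second did not pass. The calls at 4 hr were lost without replicate 3 at 0 hr in this line (−0.17) and without replicate 3 at 4 hr in the other (−0.19). The call at 48 hr was lost without replicate 3 at 0 hr (−0.16) or replicate 2 at 48 hr (−0.17), with adjusted p of up to 0.0764 in edgeR's test. The call at 24 hr in the *Stat5b* line was lost whichever of its 6 libraries was left out, with adjusted p of up to 0.204 in edgeR's test. The log2 fold change in those fits was −0.17 to −0.12, always smaller in size than with every library. The loss therefore does not single out a library, and each of those fits was scaled anew. Of the 8 other settings, the *Stat5a* calls at 4, 24, and 48 hr held in 6, 5, and 6 in the *Stat5b* line. In the *Stat5a* line they held in 5 and 5 at 4 and 48 hr.

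*Stat4*, which carries the IL-12 signal, had the largest early rise of the 6 genes in both lines. Its CPM went from 155.6, 146.6, and 152.2 at 0 hr to 392.4, 373.6, and 374.3 at 4 hr in WT cells of the *Stat5b* line, a log2 fold change of 1.33 ± 0.11 (adjusted p = 3.8e-13, edgeR). At 24 and 48 hr it stayed above 0 hr by 0.48 ± 0.10 at both times. The log2 fold changes of the *Stat5a* line were 1.13 ± 0.10, 0.45 ± 0.10, and 0.44 ± 0.10 at the 3 times, and the first was 1.21 without the library that stood apart. Between 4 and 24 hr *Stat4* fell by 0.68 (*Stat5a* line, by 0.76 without that library) and by 0.85 (*Stat5b* line) on the log2 scale.

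*Stat2* was highest at 24 hr in WT cells of both lines, and *Stat3* rose less. *Stat2* had 60.4, 65.2, and 52.7 CPM at 0 hr and 160.8, 191.0, and 201.1 at 24 hr in WT cells of the *Stat5a* line, a log2 fold change of 1.63 ± 0.13 (adjusted p = 9.9e-14, edgeR), or 3.10-fold. At 4 and 48 hr it was up by 0.72 ± 0.12 and 1.03 ± 0.12, and the first was 0.59 without the library that stood apart. It rose in the *Stat5b* line by 0.56 ± 0.12, 1.31 ± 0.13, and 0.67 ± 0.12 at the 3 times, and in both lines it then fell from 24 to 48 hr, by 0.61 and by 0.64 on the log2 scale. *Stat3*, which transmits IL-6 and IL-21 signals, rose by 0.69 ± 0.09 at 24 hr and 0.41 ± 0.09 at 48 hr in the *Stat5a* line. The *Stat5b* line had rises of 0.31 ± 0.09 at 4 hr and 0.47 ± 0.09 at 24 hr, and was at 0.13 ± 0.09 at 48 hr, which did not pass. Between successive times, 9 of 12 tests passed in WT cells of the *Stat5a* line (6 from 4 to 24 hr and 3 from 24 to 48 hr, with 55.7% and 42.7% of all genes). Without the library that stood apart the step of *Stat5a* from 4 to 24 hr was lost (0.11, adjusted p = 0.217, edgeR). For the *Stat5b* line it was 7 of 12 (4 and 3, with 49.2% and 40.0%).

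**Figure D2:**
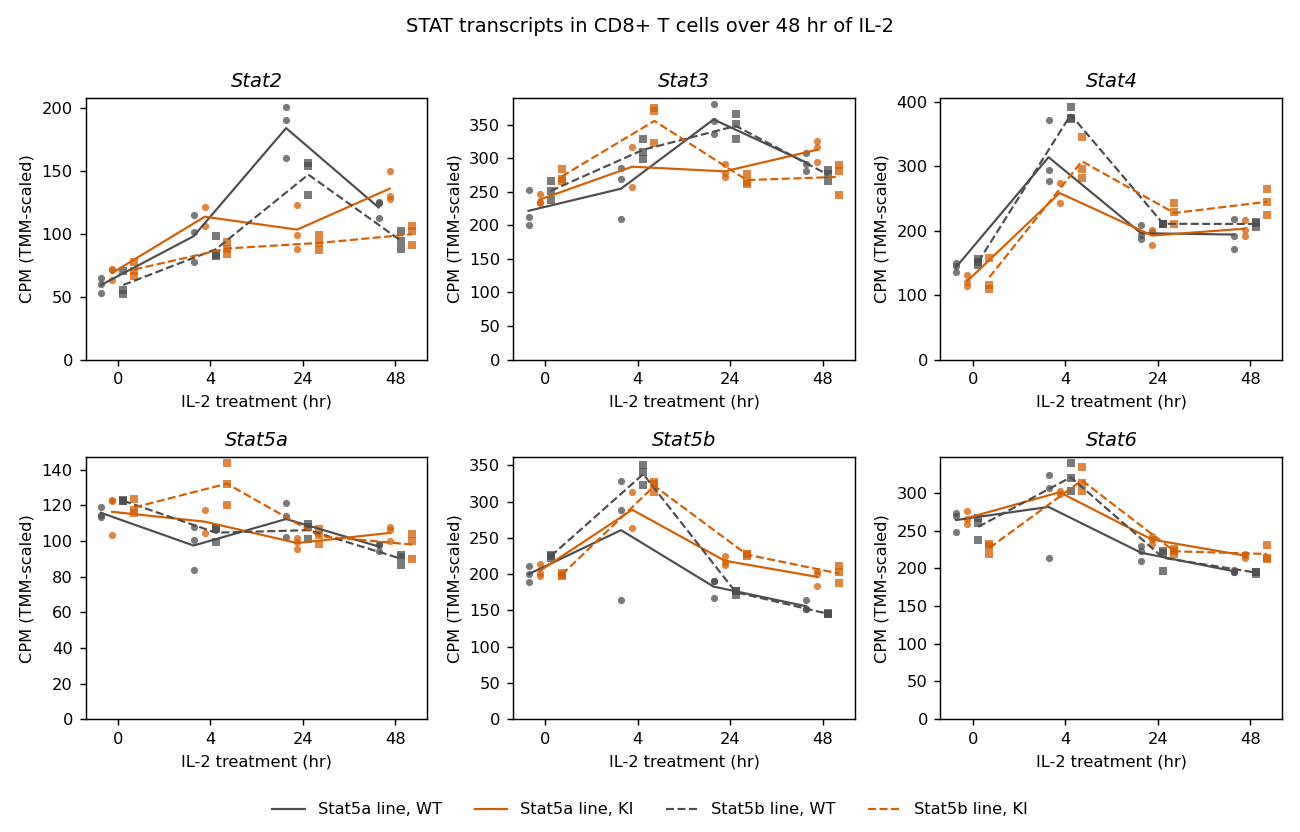
TMM-scaled CPM (y axes, from 0) of each STAT gene by hours of IL-2 (x axes, evenly spaced); points are libraries (circles for the Stat5a line, squares for the Stat5b line) and lines join the group means. Stat4 and, in the Stat5b line, Stat5b and Stat6 peak at 4 hr, and Stat2 peaks at 24 hr in WT cells (grey) while the KI cells (orange) lie lower at that time.

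The members also changed in KI cells cultured with IL-2, where IL-2 and time in culture cannot be told apart either. Of 18 tests against 0 hr, 12 passed in *Stat5a* KI cells (4 at each time, with 50.4%, 57.5%, and 62.3% of all genes) and 11 in *Stat5b* KI cells (5, 3, and 3, with 48.5%, 47.9%, and 51.6%). *Stat4* kept its early rise in KI cells, by 1.09 ± 0.11 in those of the *Stat5a* line and 1.27 ± 0.11 in the others, and *Stat5b* rose at 4 hr by 0.50 ± 0.13 and 0.69 ± 0.11, of which the first was lost without replicate 2 of the KI cells at 4 hr (0.37). At 48 hr *Stat5b* stood at −0.06 ± 0.11 and 0.01 ± 0.11 on the log2 scale and did not pass in either KI. *Stat2* rose at 24 hr by 0.59 ± 0.12 and 0.37 ± 0.12, less than in WT cells.

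Before IL-2, none of the 6 STAT genes was called between KI and WT cells of either line. At 0 hr the log2 fold changes ran from −0.24 (*Stat4*) to 0.22 (*Stat2*) in the *Stat5a* line, where 3.44% of all genes passed. The range was −0.25 (*Stat4*) to 0.27 (*Stat2*) for the *Stat5b* line, where 22.9% passed. In edgeR's test the counts at an unadjusted p under 0.05 were 1 and 3 of 6, and DESeq2 called 0 in both lines. The mutated genes were not called at 0 hr in their own line: *Stat5a* was 115.8 ± 3.03 CPM in WT and 116.4 ± 11.2 in *Stat5a* KI cells, and *Stat5b* was 224.8 ± 2.11 CPM in WT and 199.3 ± 2.22 in *Stat5b* KI cells (SD, n = 3 each). The 3 KI values of *Stat5b* lay below the 3 WT values, at a log2 fold change of −0.17 ± 0.11 (adjusted p = 0.291, edgeR). The edits change codons and do not remove the transcripts, so these levels do not test the labels.

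Over the 4 times, 3 of 24 tests of KI against WT passed in the *Stat5a* line, against 6 of 24 for *Stat5b*, all of them with IL-2. The members called at 4, 24, and 48 hr numbered 0, 2, and 1 in the *Stat5a* line, where 24.6%, 18.5%, and 44.3% of all genes passed, and 2, 3, and 1 in the *Stat5b* line, where 27.3%, 50.4%, and 63.6% passed. The count of 0 at 4 hr was by edgeR, with 2 members at an unadjusted p under 0.05 and 1 call by DESeq2. These shares were near or under the background except at 24 hr in the *Stat5a* line, where 2 of 6 is too few to tell, so the results below concern single genes and not the family. The median log2 fold change of the 6 members at 48 hr was 0.13 and 0.15 in the *Stat5a* and *Stat5b* lines, against 0.04 and 0.10 over all genes tested.

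*Stat2* was lower at 24 hr in KI cells of both lines. In the *Stat5a* line its CPM was 160.8, 191.0, and 201.1 in WT and 123.04, 87.9, and 99.6 in KI cells. No KI value reached the lowest WT value, and the log2 fold change was −0.83 ± 0.12 (adjusted p = 1.4e-05, edgeR). In the *Stat5b* line the WT values were 156.6, 154.5, and 130.8 and the KI values 87.0, 98.9, and 92.7, again without overlap, at −0.67 ± 0.12 (adjusted p = 2.4e-05, edgeR). The calls held under 8 other settings of the fit (with no limit on the fold) and without each of the 6 libraries in turn, with log2 fold changes of −0.98 to −0.73 (*Stat5a* line) and −0.74 to −0.62 (*Stat5b* line) when a library was left out. At 0, 4, and 48 hr *Stat2* was at 0.22, 0.21, and 0.17 (*Stat5a* line) and at 0.27, 0.01, and 0.08 (*Stat5b* line), and was not called. Without the WT library that stood apart, the value at 4 hr in the *Stat5a* line was 0.34, also not called (adjusted p = 0.103, edgeR).

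*Stat3* was lower at 24 hr in both lines by a smaller amount. The CPM was 355.9, 335.7, and 381.0 in WT and 291.7, 277.7, and 271.4 in KI cells of the *Stat5a* line, at −0.35 ± 0.09 (adjusted p = 0.00441, edgeR). The *Stat5b* line had 365.5, 350.1, and 328.2 in WT and 261.4, 276.6, and 263.8 in KI cells, at −0.38 ± 0.09 (adjusted p = 0.000468, edgeR). The groups did not overlap in either line. That of the *Stat5a* line was lost with limma on log2(RPKM + 1), at −0.28, and with all 48 libraries, at −0.38.

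*Stat5b* was called higher in KI cells in 3 of the 4 comparisons at 24 and 48 hr. At 48 hr its CPM was 144.8, 144.6, and 146.4 in WT and 210.7, 203.2, and 188.5 in KI cells of the *Stat5b* line, at 0.47 ± 0.11 (adjusted p = 0.000533, edgeR), and at 24 hr it was 176.9, 177.4, and 171.2 in WT and 224.8, 228.1, and 228.2 in KI cells, at 0.37 ± 0.11 (adjusted p = 0.00583, edgeR). In the *Stat5a* line the CPM at 48 hr was 163.8, 151.4, and 152.2 in WT and 183.9, 203.9, and 200.9 in KI cells, at 0.33 ± 0.11 (adjusted p = 0.0156, edgeR). At 24 hr it was at 0.26 ± 0.11 there and did not pass (adjusted p = 0.112, edgeR). In the *Stat5b* line the calls were lost with all 48 libraries at both times (0.36 and 0.40), and at 24 hr with limma on log2(RPKM + 1). KI values lay above WT values without overlap in all 4 comparisons, the one that did not pass included. The call at 48 hr in the *Stat5a* line was lost when replicate 2 or 3 of either group was left out. Adjusted p was then up to 0.103 in edgeR's test. That call was also lost with all 48 libraries, no filter on low counts, or limma.

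At 4 hr 2 members differed in the *Stat5b* line. *Stat5a* was at 106.8, 107.6, and 99.7 CPM in WT and 132.2, 144.02, and 120.4 in KI cells, at 0.34 ± 0.08 (adjusted p = 0.000818, edgeR). The call held in 7 of the 8 other settings of the fit and was lost with all 48 libraries. *Stat4* was at 392.4, 373.6, and 374.3 in WT and 295.2, 345.9, and 282.4 in KI cells, at −0.30 ± 0.10 (adjusted p = 0.0247, edgeR), and that call was lost when replicate 1 of WT or replicate 1 or 3 of KI cells was left out, and with all 48 libraries, no filter on low counts, or limma. In the *Stat5a* line *Stat4* was at −0.28 ± 0.12 at 4 hr (adjusted p = 0.0697, edgeR). Without the WT library that stood apart it was at −0.36 and passed (adjusted p = 0.0398, edgeR), and the other 5 members were not called there with or without it. *Stat6* was not called by edgeR in any of the 8 comparisons, with log2 fold changes of −0.17 to 0.17. With a replicate block it passed at 48 hr in the *Stat5b* line (0.17, adjusted p = 0.0491, edgeR).

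**Figure D3:**
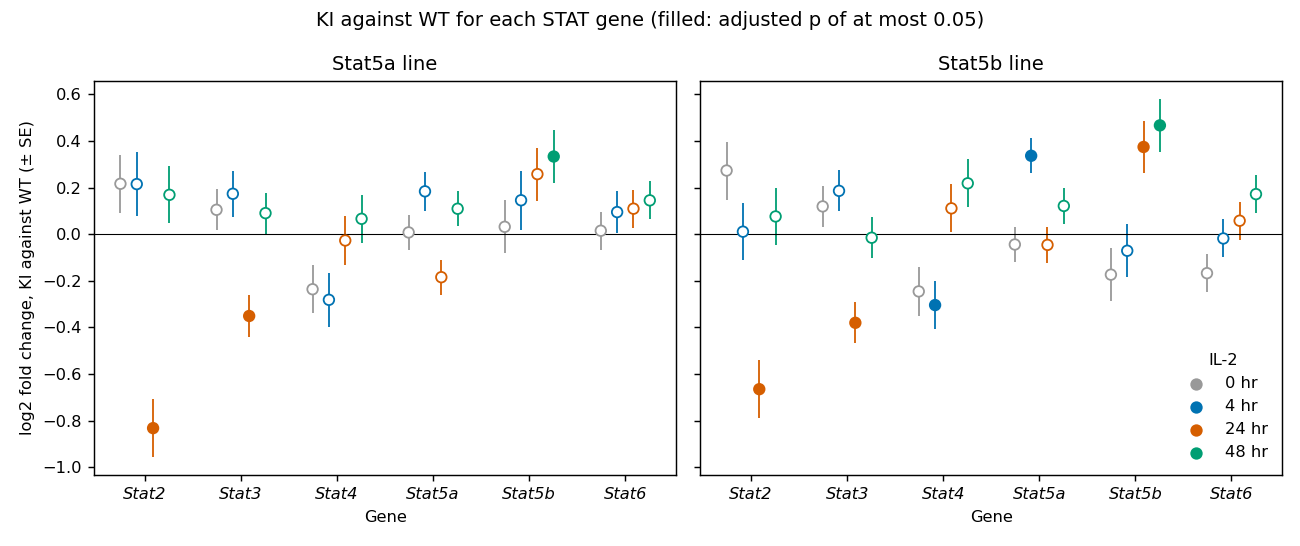
log2 fold change of KI against WT (y axis, ± SE) for each STAT gene (x axis) at the 4 times of IL-2 (colours) in the Stat5a line (left) and the Stat5b line (right), with filled points for an adjusted p of at most 0.05. The lowest points are those of Stat2 at 24 hr, at −0.83 and −0.67, and the highest is Stat5b at 48 hr in the Stat5b line, at 0.47.

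The libraries of KI cells held more RNA of other cell types, and this moved with the genotype. At 24 hr all 7 B-cell genes were higher in KI cells of both lines, with a median log2 fold change of 1.61 (*Stat5a* line) and 2.88 (*Stat5b* line). Their summed RPKM was 61.6 ± 31.7 in WT and 195 ± 23.2 in KI cells of the first line, against 27.6 ± 3.41 and 176 ± 14.4 in the second. At 48 hr the sums were 27.6 ± 13.1 and 108.45 ± 9.96 in the first line and 12.5 ± 1.24 and 123.24 ± 2.93 in the second, again with all 7 genes called higher. Of 6 myeloid genes tested, 5 and 6 were higher at 24 hr, led by *Lyz2* in level, and of 4 erythroid genes 0 and 4. The myeloid sum at 24 hr was 10.3 ± 4.61 in WT and 40.1 ± 19.04 in KI cells of the first line, and 7.34 ± 1.94 and 55.5 ± 18.9 in the second. The erythroid sum, led by *Hbb-bs* in KI cells, was 19.4 ± 5.13 and 23.9 ± 8.33 in the first line and 14.3 ± 5.17 and 181 ± 70.1 in the second. *Cd4*, 1 of 4 listed genes of CD4 T cells, was called higher in KI cells at each time except 4 hr in the *Stat5a* line. *Ctla4*, the most abundant of that list at 0 hr, was then at 37.1 RPKM in KI and 38.3 in WT cells of the *Stat5a* line. In the *Stat5b* line it was at 71.6 and 44.9. Of 4 NK-cell genes 3 were lower at 24 hr in each line, and the remaining one, *Ncr1*, was higher at 24 hr in *Stat5b* KI cells and at 48 hr in both. *Eomes*, the most abundant of the 4, is among those 3 and is not specific to NK cells. The paper reports weaker induction of its protein by IL-2 in *Stat5a* KI CD8+ T cells. Of the 8 CD8 T-cell genes, 1 was higher at 24 hr and 5 at 48 hr in each line, and 7 were lower at 0 hr in *Stat5b* KI cells. Of all genes tested, 18.5% and 50.4% were called at 24 hr in the *Stat5a* and *Stat5b* lines, and 44.3% and 63.6% at 48 hr. At 0 hr 22.9% were called in the *Stat5b* line. The 5 of 8 at 48 hr in that line were therefore near the background. *Tcf7* (0.89 and 1.24), *Lef1* (0.70 and 1.06), and *Ccr7* (0.63 and 0.82), genes of naive T cells, were higher in KI cells of both lines at 48 hr. Of 5 genes of memory-phenotype CD8 T cells, *Il2rb* and *Ly6c2* were lower at 24 and 48 hr in both lines, and 1 and 2 others were higher at 48 hr. Of all these lists, 1 erythroid gene was at 0 in all libraries of 1 group, WT cells at 48 hr of the *Stat5b* line. Their part in the differences of the STAT genes was not tested, and in bulk samples fewer cells of a type and less RNA per cell cannot be told apart.

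The response to culture with IL-2 was compared between KI and WT cells by an interaction term, which subtracts the difference at 0 hr. It was called for 2 of 18 tests in the *Stat5a* line, both at 24 hr (0, 2, and 0 at 4, 24, and 48 hr, with 1.54%, 5.11%, and 28.0% of all genes), and for 6 of 18 in the *Stat5b* line (0, 3, and 3, with 1.99%, 33.8%, and 49.4%). Of these 8 calls, the 2 of *Stat2* held with all 48 libraries and the other 6 did not, and those of *Stat3* in the *Stat5a* line and of *Stat4*, *Stat6*, and *Stat5b* at 24 hr were also lost with limma. The response of *Stat2* at 24 hr was lower in KI cells, with an interaction of −1.05 ± 0.18 in the *Stat5a* line (adjusted p = 0.000351, edgeR). For the *Stat5b* line it was −0.94 ± 0.18 (adjusted p = 5.0e-05, edgeR). That of *Stat3* was at −0.46 ± 0.13 and −0.50 ± 0.13, and the call in the *Stat5a* line was lost in 5 of 12 fits without 1 library (replicate 1 or 2 of WT or 1 of KI cells at 0 hr, replicate 2 or 3 of KI cells at 24 hr), with adjusted p of up to 0.0798 in edgeR's test. In the *Stat5b* line the response of *Stat5b* was higher in KI cells at 24 hr (0.55 ± 0.16) and at 48 hr (0.64 ± 0.16), and those of *Stat4* (0.46 ± 0.15) and *Stat6* (0.34 ± 0.12) at 48 hr, the last of which was lost without replicate 1 of the WT cells at 0 hr (0.28). In edgeR's test 0 members at 4 hr in either line and at 48 hr in the *Stat5a* line passed, with 0, 1, and 1 at an unadjusted p under 0.05 and 0, 1, and 0 calls by DESeq2. At 4 hr in the *Stat5a* line, *Stat3*, *Stat5b*, and *Stat6* were at 0.07, 0.11, and 0.08 with all WT libraries and at −0.05, −0.125, and −0.08 without the one that stood apart. *Stat2* went from −0.001 to 0.13, *Stat4* from −0.05 to −0.13, and *Stat5a* from 0.18 to 0.08, and no member was called either way. For *Stat4* and *Stat6* in the *Stat5b* line the KI value lay under the WT value at 0 hr and over it at 48 hr, so that neither time passed alone while their difference did.

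No STAT gene was called for a KI effect that differed between the lines. The difference of the 2 KI effects was tested at each time over both lines, which do not share WT libraries, and 0 of 24 tests passed in edgeR, with 0 at an unadjusted p under 0.05 and 0 by DESeq2. Of all genes, 0.193%, 10.9%, 14.1%, and 11.0% passed at the 4 times in turn. These 24 differences ran from −0.22 (*Stat5b* at 4 hr) to 0.17 (*Stat2* at 24 hr) on the log2 scale. Without the WT library that stood apart *Stat5b* at 4 hr was at 0.03, the lowest value at that time was −0.33 (*Stat2*), and none of the 6 genes was called at 4 hr. The differences over all 47 libraries came with SEs of 0.11 to 0.18, so that differences of that size were not detectable with these replicates.

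The balance of the near-identical pair was followed by the ratio of *Stat5b* to *Stat5a* RPKM within each library, which needs no scaling between libraries. In WT cells it was 1.28 ± 0.0404 and 1.36 ± 0.0135 at 0 hr in the *Stat5a* and *Stat5b* lines (SD, n = 3). At 4 hr it was 2.12, 1.46, and 2.26 in the *Stat5a* line, the second from the library that stood apart, and 2.39 ± 0.0274 in the *Stat5b* line, and at 48 hr it was 1.19 ± 0.0419 and 1.19 ± 0.0338, which in the *Stat5b* line lay below every value at 0 hr. KI cells were higher at 24 hr, at 1.64 ± 0.0753 against 1.21 ± 0.0356 (*Stat5a* line) and 1.64 ± 0.0565 against 1.22 ± 0.0275 (*Stat5b* line). At 48 hr they were at 1.39 ± 0.0229 and 1.52 ± 0.0328, again above every WT value. KI cells of the *Stat5a* line were at 1.31 ± 0.0936 at 0 hr and at 1.88 and 1.97 at 4 hr, below the WT values of 2.12 and 2.26 and above that of the library that stood apart. In the *Stat5b* line KI cells were lower at 0 hr (1.24 ± 0.0507) and at 4 hr (1.81 ± 0.131), with no overlap at either time, so the sign of the difference turned between 4 and 24 hr. The mean log2 difference over the 4 times was 0.18 in the *Stat5a* line, a ratio of 1.13 (exact permutation test within times, two-sided, p = 0.0222, adjusted p = 0.0444 over the 2 lines), and 0.06 in the *Stat5b* line (p = 0.458, adjusted p = 0.458, exact permutation test). Adjusted in the same way, the first held in 8 of 23 tests without 1 library and was lost in 15. Without the WT library that stood apart it was 0.128 (adjusted p = 0.0993, exact permutation test).

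**Figure D4:**
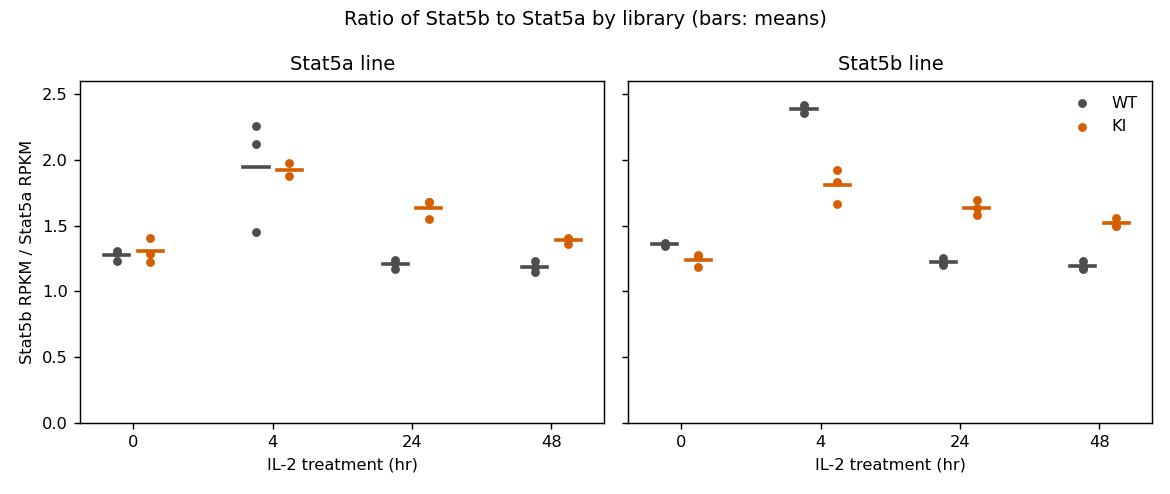
Ratio of Stat5b to Stat5a RPKM (y axis, from 0) in each library (points) by hours of IL-2 (x axis) in WT (grey) and KI (orange) cells, with group means as bars, in the Stat5a line (left) and the Stat5b line (right). The ratio peaks at 4 hr, at 2.39 in WT cells of the Stat5b line, and the KI libraries lie above the WT libraries at 24 and 48 hr in both lines.

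The rest of the JAK-STAT pathway was described by 44 genes in 5 lists, all of which passed the filter. At 48 hr of IL-2 in WT cells 15 rose and 16 fell in the *Stat5a* line, while 15 rose and 21 fell for *Stat5b*. These 31 and 36 of 44 stand beside 71.7% and 69.9% of all genes called. The median log2 fold changes were −0.05 and −0.13, against −0.12 and −0.13 over all genes. Between KI and WT at 48 hr, 14 were higher and 10 lower in the *Stat5a* line, against 17 and 15 for *Stat5b*. Those are 24 and 32 of 44, beside 44.3% and 63.6% of all genes.

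Of the 4 kinases, *Jak1* and *Jak2* were called at 48 hr in both lines, with IL-2 and between KI and WT. *Jak1*, which pairs with the IL-2 receptor β chain, fell at 48 hr in WT cells by 0.68 (*Stat5a* line) and by 0.84 (*Stat5b* line) on the log2 scale, and *Jak2* by 1.00 and by 1.04. *Jak3*, which binds the common γ chain, fell at 4 hr by 1.33 and by 1.51 and was at −0.08 and −0.61 at 48 hr, of which the second passed. *Tyk2*, the kinase of the interferon and IL-12 receptors, was at −0.23 in the *Stat5a* line and fell by 0.58 in the *Stat5b* line at 48 hr. In KI cells at 48 hr *Jak1* was higher than in WT cells by 0.26 and 0.55 and *Jak2* by 0.30 and 0.61 in the *Stat5a* and *Stat5b* lines, while *Jak3* (0.07 and −0.09) and *Tyk2* (0.21 and 0.20) were not called. The difference between the lines was called for both *Jak1* (0.29) and *Jak2* (0.31) at 48 hr (adjusted p = 0.024 and 0.027, edgeR).

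The counts of the following lists stand beside 44.3% and 63.6% of all genes called at 48 hr in the *Stat5a* and *Stat5b* lines, and several lie near that share. Of 8 receptors that use or accompany the common γ chain, 2 were higher and 2 lower in *Stat5a* KI cells at 48 hr and 2 and 3 in *Stat5b* KI cells. *Il2ra*, the α chain of the IL-2 receptor, was lower (−2.09 and −2.54), and so was *Il2rb* (−0.83 and −1.56), while *Il7r* was higher by 0.82 and 2.05 and *Il9r* by 2.54 and 4.81. Of 11 other cytokine receptors, 4 were higher and 3 lower in the *Stat5a* line, against 5 and 4 for *Stat5b*. The lower ones included both chains of the IL-12 receptor upstream of STAT4, *Il12rb2* (−1.49 and −2.53) and *Il12rb1* (−0.64 and −1.05), and the higher ones both chains of the IL-6 receptor upstream of STAT3, *Il6ra* (0.90 and 1.09) and *Il6st* (0.70 and 1.04). Of 16 inhibitors, 2 were higher and 5 lower in the *Stat5a* line, against 4 and 8 for *Stat5b*. *Cish* (−1.29 and −2.54) and *Socs2* (−1.72 and −1.84), feedback inhibitors that STAT5 is known to induce, were lower in both lines. Of 5 partner genes, 4 were higher and 0 lower in each line, among them *Irf9* (0.53 and 0.85), a DNA-binding partner of STAT2, and *Crebbp* (0.57 and 0.60), a histone acetyltransferase.

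Genes known to lie downstream of single STATs were counted in the same fit. Of 11 genes listed as targets of STAT5, 1 was higher and 7 lower in *Stat5a* KI cells at 48 hr, and 1 and 9 in *Stat5b* KI cells, beside the same 44.3% and 63.6% of all genes. *Gzmb* (−2.38 and −4.30), *Lif* (−2.85 and −4.05), and *Lta* (−2.81 and −3.62) were among the lower ones, and *Bcl6*, which STAT5 represses, was the higher one (1.42 and 2.51). The list medians were −0.55 and −1.66. The lists were chosen with results of these data known, so their direction is not independent evidence. Of 5 genes listed for STAT4, 1 was higher (*Furin*, 0.30 and 0.41) and 2 and 3 lower in the 2 lines, among them *Ifng* (−2.67 and −3.11) and *Tbx21* (−0.49 and −1.17). Of 5 genes listed for STAT3 and STAT6, 1 was higher and 1 lower in each line at 48 hr, with *Maf* as the higher one (1.22 and 2.15).

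The 9 listed interferon-response genes, which STAT2 helps to induce, had medians above 0 at 4 hr and below 0 at 24 hr. At 4 hr 5 were higher in KI cells, 0 lower, and 4 not called in each line (medians of 1.00 and 1.02), beside 24.6% and 27.3% of all genes called, and *Oasl1* (1.80 and 1.30), *Rsad2* (1.66 and 2.63), and *Isg15* (1.57 and 1.10) were highest. Without the WT library that stood apart, 8 were higher and 0 lower in the *Stat5a* line, with a median of 1.45. At 24 hr 7 were lower and 0 higher in the *Stat5a* line, against 5 and 0 for *Stat5b* (medians of −1.35 and −0.96), beside 18.5% and 50.4% of all genes, so that the share in the *Stat5b* line was near the background. *Ifit3* (−1.87 and −1.504), *Ifit1* (−1.81 and −1.17), and *Isg15* (−1.48 and −0.9999) were the lowest. *Stat2* itself was lower at 24 hr and not called at 4 hr. In WT cells *Ifit3* rose by 2.66 and 2.56 at 24 hr of IL-2, and *Mx1* fell by 2.26 and 2.28 at 4 hr on the log2 scale. The comparisons of KI with WT at 24 hr and of IL-2 with 0 hr in WT cells use the same WT libraries at 24 hr.

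**Figure D5:**
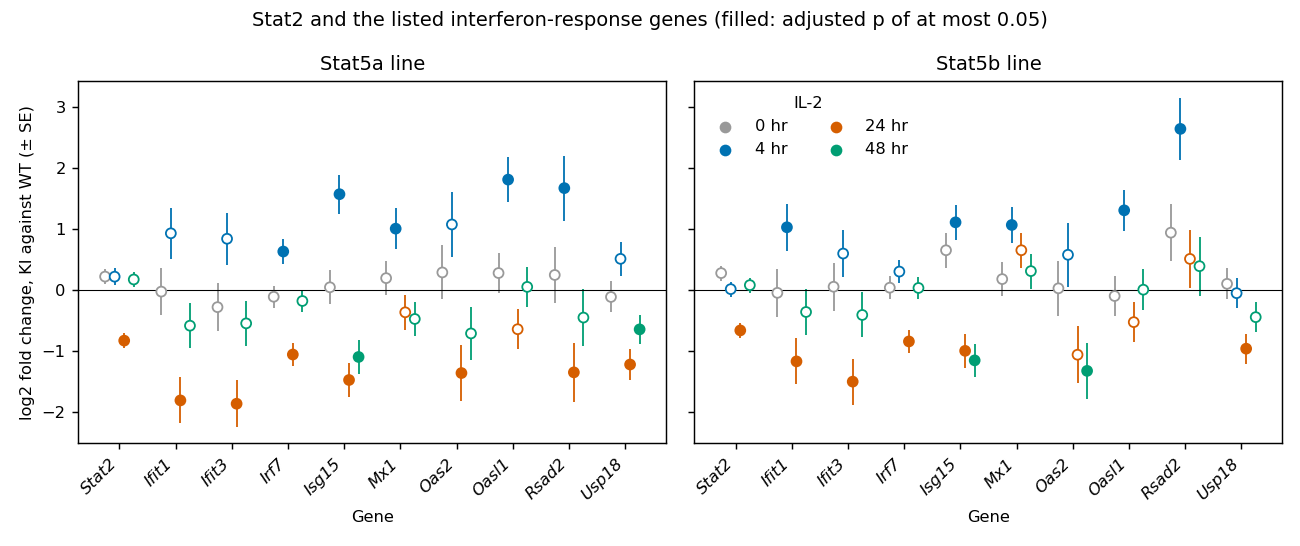
log2 fold change of KI against WT (y axis, ± SE) for Stat2 and 9 interferon-response genes (x axis) at the 4 times of IL-2 (colours), with filled points for an adjusted p of at most 0.05, in the Stat5a line (left) and the Stat5b line (right). Filled points at 4 hr lie above 0 and those at 24 hr below 0, and Stat2 is filled at 24 hr alone.

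Genes next to the edited loci were counted because *Stat5b*, *Stat5a*, and *Stat3* form 1 cluster. Of 62 other RefSeq genes that start within 500 kb of it on GRCm38, 42 were tested. Between KI and WT cells 2.38%, 16.7%, 21.4%, and 35.7% of them passed at the 4 times in turn in the *Stat5a* line, beside 3.44%, 24.6%, 18.5%, and 44.3% of all genes. The *Stat5b* line had 19.05%, 30.95%, 42.86%, and 69.05% of them, beside 22.9%, 27.3%, 50.4%, and 63.6% of all genes. *Atp6v0a1*, a subunit of the vacuolar proton pump at chr11:101009422-101063719, was the one neighbour that passed with a fold of at least 2 at 0 hr in the *Stat5a* line (1.03), and it passed that limit at all 4 times in the *Stat5b* line (1.40 at 0 hr). *Jup* (plakoglobin, a junction protein) and *Hap1* passed it at 3 and 2 times for the *Stat5a* line and at all 4 times for the other, up to 2.34 and 3.73 at 48 hr. Another 12 neighbours passed it in 1 to 3 of the 8 comparisons, namely *Aarsd1*, *Ccr10*, *Cntnap1*, *Dhx58*, *Ezh1*, *Plekhh3*, *Psmc3ip*, *Psme3*, *Ramp2*, *Tubg1*, *Wnk4*, and *Zfp385c*. The share of all genes past that fold is not given here, so these counts are not compared with a background. The B-cell genes were higher in KI cells of the *Stat5b* line in the same comparisons, with medians of 2.02, 2.02, 2.88, and 3.78 at the 4 times, and their part in the values of the neighbours was not tested. Both lines were backcrossed from hybrid zygotes, and strain differences near the edit and the edit itself cannot be told apart in this design.

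Across the 16 group means *Stat5b* and *Stat6* had the most alike courses of any 2 members (Pearson r = 0.921), followed by *Stat2* and *Stat3* (0.755), while *Stat5a* and *Stat5b* had r = 0.433. These are descriptions over means that share the time course. Among all genes tested, those most like *Stat2* were *Parp14* (r = 0.946), *Gbp3* (0.941), and *Parp9* (0.939), and those most like *Stat5b* were *Gtf2i* (0.988), *Itfg3* (0.975), and *Zfp523* (0.975). *Stat4* was followed most closely by *Ttf1* (0.961), *Nck1* (0.959), and *Nckap1* (0.957), and *Stat6* by *Ulk1* (0.969), *Map3k10* (0.968), and *Btbd9* (0.968). *Tssc1* (0.843) and *Gmppa* (0.811) were among those most like *Stat3*. For *Stat5a* the closest were *Il12b* (0.879), *Sstr2* (0.868), and *Kdr* (0.864).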

How the data were processed

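RNA-seq counts and RPKM of 48 libraries were used. The authors sequenced libraries made from 100 ng of RNA as 50 bp single-end reads and mapped them to mm10/GRCm38 with TopHat. They kept uniquely mapped reads and deposited, for each RefSeq transcript, a raw count without normalization. The deposited RPKM, also the authors' own, divide a count by the length of the transcript and by how many reads were mapped. Submitters' processing notes name TopHat2 2.0.11, Bowtie2 2.2.6, SAMtools 0.1.8, bedtools 2.25.0, and edgeR, and the counting program and use of strand are not given in the sources used here. A ChIP-seq control sample was not used here.

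Of 31682 transcripts, the longest was taken for each of 23992 symbols. Of 48 libraries, 47 entered 1 fit in edgeR 4.0.16 (R 4.3.3), with TMM scaling, filterByExpr at a minimum count of 10, a mean for each of the 16 groups, and the quasi-likelihood test. The SE is the size of the log2 fold change divided by the square root of F. The ratio of *Stat5b* to *Stat5a* was tested by exact permutation of genotypes within times. The fit was tested on simulated data. Depths of 17369112 to 60200653 reads left every member with 1499 reads or more. The members, lists, and rule for named genes were chosen with earlier results of these data known. Named genes are the members, the JAKs, up to 3 of the largest rises and falls among those called in each list, the 3 genes most like each member, and neighbours called with a fold of at least 2. Some genes of the lists and of the rule are not reported here. Gene positions come from the RefSeq annotation of GRCm38, since the deposited files give the chromosome alone. Sequences were taken from that genome and from the study's guides and donor oligos, and promoter windows from RefSeq.

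Alternatives were all 48 libraries, DESeq2's size factors, DESeq2 1.42.0, no filter, limma 3.58.1 on log2(RPKM + 1) (genes kept if 3 or more libraries reached an RPKM of 1), the groups compared alone, the shortest transcript, a fold of at least 2, a replicate block, and each library left out. Leaving out a library for the interferon-response list was chosen after seeing the data. By the correlation of deviations from group means, replicate numbers paired the libraries in 2 of 24 comparisons (WT cells of the *Stat5a* line at 24 and 48 hr, with correlations of 0.206 to 0.419 and 0.117 to 0.192). The other 22 were not counted as paired. Those with *Stat5a* KI cells at 4 hr held only 2 pairs, too few for the rule to count them. For IL-2 against 0 hr in these cells the correlations were 0.161 and 0.181, so pairing there was not decided. The labels do not say what a shared number means. The block changed 0 calls in the paired comparisons. Tables and plots used Python 3.11.15, pandas 2.3.3, numpy 2.4.6, pysam 0.24.0, and matplotlib 3.10.9.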

Additional observations from a re-analysis of the deposited data

Results flagged for a closer look

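In 8 cases the IL-2 response of a STAT gene differed between KI and WT cells by the interaction term of the edgeR fit. Values are the response in KI minus that in WT on the log2 scale. With all 48 libraries the 2 cases of *Stat2* were still called and the other 6 were not. At 24 hr that of *Stat2* was −1.05 in the *Stat5a* line and −0.94 for *Stat5b*, and *Stat3* was at −0.46, a call lost in 5 of 12 fits without 1 library, and −0.50. *Stat2* rose in all 4 sets of cells, and *Stat3* did not pass in *Stat5b* KI cells (−0.03). In the *Stat5b* line the response of *Stat5b* differed by 0.55 at 24 hr and by 0.64 at 48 hr, where it fell in WT cells and was not called in KI cells. At 48 hr the differences there were 0.46 for *Stat4* and 0.34 for *Stat6*. The difference between the lines was tested for the KI effects and was called for 0 of 24 tests in edgeR, with 0 at an unadjusted p under 0.05 and 0 by DESeq2. B-cell and myeloid markers were higher in KI cells of both lines at 24 hr, and their part was not tested.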

How the results depend on the processing

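No call changed direction under the alternatives run. Among values that were not called, *Stat5b* and *Stat6* at 4 hr in KI against WT of the *Stat5a* line went from 0.15 and 0.09 to −0.09 and −0.07 without replicate 2 of the WT cells. With all 48 libraries the tests called fell, for the *Stat5a* and *Stat5b* lines, to 6 and 8 (from 14 and 17) for IL-2 in WT cells, 7 and 7 (from 12 and 11) in KI cells, and 5 and 4 (from 9 and 7) between successive times. KI against WT fell to 2 in the *Stat5b* line (from 6), the interaction to 1 and 1 (from 2 and 6), and the pathway genes of *Stat5a* KI at 48 hr to 15 (from 24). With limma on log2(RPKM + 1) the counts were 8 and 11 for IL-2 in WT cells, 5 between times in the *Stat5a* line, 5 for KI against WT there (from 3, with 1 shared), and 1 and 3 for the interaction. A fold of at least 2 left 3 and 2 for IL-2 in WT cells, 1 and 1 in KI cells, 0 and 0 between times, 0 and 0 for KI against WT, 1 and 0 for the interaction, 15 and 17 (from 31 and 36) pathway genes with IL-2, and 5 and 10 (from 24 and 32) pathway genes in KI against WT. KI against WT in the *Stat5a* line gave 5 with DESeq2, with its size factors, and with the groups compared alone, where the *Stat5b* line gave 10, and 10 for the interaction.

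Leaving out 1 library gave, for the 2 lines in turn, 12 to 15 and 15 to 18 for IL-2 in WT cells, 9 to 13 and 9 to 12 in KI cells, 6 to 9 and 6 to 8 between times, 2 to 5 and 5 to 7 for KI against WT, and 1 to 2 and 6 to 8 for the interaction. For the pathway lists it gave 30 to 33 and 35 to 36 with IL-2, and 22 to 26 and 30 to 30 in KI against WT. The difference of the KI effects between the lines stayed at 0 to 0. The log2 ratio difference was 0.128 to 0.207 and 0.0470 to 0.0730. Among single-gene calls, 506 held and 60 were lost when a library was left out. Each of these fits was scaled anew, and some values moved the same way in every such fit. *Stat5b* in WT cells at 48 hr of the *Stat5b* line went from −0.63 to between −0.55 and −0.54.

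The replicate block gained 3 calls and lost 1 in comparisons not counted as paired. Among the gains was *Stat6* in *Stat5a* KI cells at 4 hr (0.20, adjusted p = 0.0497, edgeR), where pairing was not decided. For the ratio in the *Stat5a* line, a replicate block in which numbers keep their genotype gave 0.177 with p = 0.1 in the exact permutation test, the smallest it allows, and with all 48 libraries the difference was 0.326. Of the 87 single-gene calls, 84 remained with DESeq2, 57 with limma, 42 with all 48 libraries, 79 without the filter, 82 with the groups compared alone, and 86 with the block. The median over all genes moved by −0.227 to 0.364 with limma on RPKM, by −0.0682 to 0.123 with all 48 libraries, by −0.104 to 0.133 without the filter, and by −0.0795 to 0.102 with the groups compared alone. The cause of these changes was not tested.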
